A study of Mus musculus with 57 samples.

Results

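The translation initiation and elongation factors were taken as every target of the raw count table whose name begins with Eif and a digit from 1 to 6, or with Eef1 or Eef2. The rule found 54 targets of 9780, each measured by 1 probe that lies inside an annotated gene, its own for all but Eif3j1, whose first listed position is annotated to the near-identical Eif3j2. It uses names alone, so it also takes in genes that act on the factors, such as the kinases Eif2ak2, Eif2ak3 and Eef2k, the eIF4E repressors and the methyltransferase Eef1akmt2, and the RNA helicase Eif4a3 of the exon junction complex. Eef1a1, the gene of the main aminoacyl-tRNA carrier, was not analysed here.

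In translation, the initiation factors bring the small ribosomal subunit and the initiator tRNA to the capped mRNA and place them on the start codon, and the elongation factors then deliver each aminoacyl-tRNA and move the ribosome along the message. Phosphorylation of eIF2 by its kinases slows initiation, and unphosphorylated eIF4E-binding proteins keep the cap-binding protein from its scaffold. The acinar cells that fill most of the pancreas make large amounts of digestive enzyme, and the endoplasmic reticulum kinase PERK, encoded by Eif2ak3, is known to be needed for the health of the exocrine and endocrine pancreas.

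RNA was measured in 57 square regions, 650 µm on a side in the labels, of formalin-fixed pancreas from C57BL/6 mice, with the GeoMx Whole Transcriptome Atlas, an assay that frees the barcodes of hybridised probes with light, region by region, for counting on a sequencer. Mice of 8 to 9 weeks received caerulein, a cholecystokinin analogue that overstimulates acinar cells, into the peritoneum every hour for 8 hours on each of 2 days, and the other mice are labelled control with no treatment named. Control had 7 regions. The times labelled 3, 12, 24, 48 and 72 hours had 3, 6, 6, 5 and 4 regions, and those labelled 5, 7, 14 and 30 days had 6, 6, 7 and 7. Each group lay on both of 2 tissue arrays, and the labels do not state the event from which the times run. The labels give 2 to 4 regions per tissue sample but do not tie regions to animals, so the counts of a group on an array were added into 1 sum, with 2 sums per group. Whether the 2 sums of a group come from different animals is not stated, and where they share an animal the p-values below are too small.

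Total counts per region ran from 1036609 to 5035488 and the negative-probe value, the average count of probes with no target in the genome, from 42.1 to 186. A level below is a target's count divided by the negative-probe value of the same region, so 1 is background. Each level is that of a single probe, and levels of different genes are not ranked as amounts of RNA. A log2 difference is from edgeR's quasi-likelihood test on the sums after TMM scaling, given ± SE, and a target was called at a Benjamini-Hochberg adjusted p under 0.05 over the 2688 targets tested. On that scale the negative-probe value itself stood at -0.26, -0.41 and -0.43 against control at 3, 12 and 24 hours, so multiples of background rose further at those times than TMM differences did. The share of all targets whose levels did not overlap control is not given. A lack of overlap in levels below therefore describes a factor and is not shown to be particular to it.

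Of the 54 factors, 11 exceeded 2 times background in at least 29 of the 57 regions and are called measured throughout. They were Eif1, Eef2, Eif3m, Eif4a1, Eif4a2, Eif4a3, Eif5a, Eif2ak3, Eif4ebp1, Eef1g and Eif2s2. A further 23 did so in 3 to 25 regions, among them 11 of the 13 eIF3 targets. The remaining 20 did so in at most 2 regions and were not tested.

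The weakly detected factors were spread unevenly over the role groups used here. All 4 targets of the guanine exchange factor eIF2B, which reloads eIF2 with GTP, were weak (Eif2b2, Eif2b3, Eif2b4 and Eif2b5). So were 7 of the 11 targets grouped here as ternary complex and start codon (Eif1ad, Eif1b, Eif2a, Eif2d, Eif2s3x, Eif2s3y and Eif5). That grouping does not show that Eif1ad, Eif2a or Eif2d acts in the ternary complex. The other weak factors were Eif2ak2, Eef2k, Eif3l, Eif4e2, Eif4ebp2, Eif4enif1, Eif5a2, Eef1e1 and Eef1akmt2. The highest level of the 20 weak factors in any region was 2.66 (Eif5), and no difference between groups is given for them, since they did not pass the limit set for testing. A probe near background does not show that the RNA is absent. Members just inside the limit were Eif4g2 and Eif5b, above it in 3 regions each, and just outside were Eif1b, Eif4ebp2 and Eif5, in 2 regions each.

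**Figure D1:**
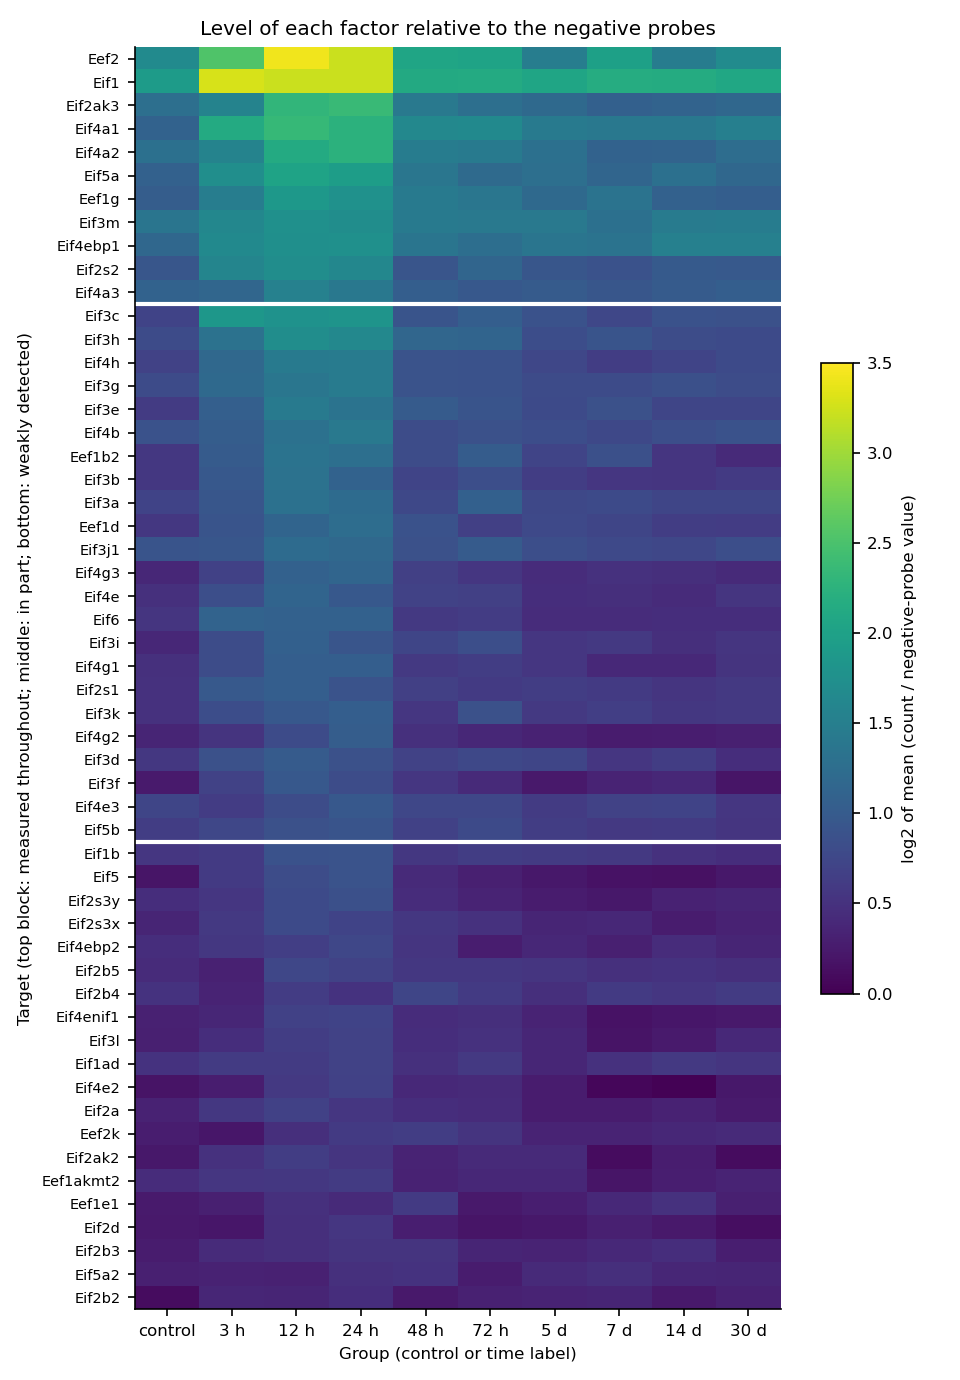
Mean level of each of the 54 factors in each group, as log2 of the mean count over the negative-probe value (colour), with the 10 groups across and the factors down. White lines part the 11 factors measured throughout, the 23 measured in part and the 20 weakly detected. The 12-hour and 24-hour columns are brightest in the upper blocks, and Eef2 and Eif1 reach the highest values.

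The number of factors above 2 times background in a region ran from 4 to 13 in the 7 controls (median 11). It ran from 22 to 32 in the 6 regions of 12 hours and from 23 to 37 in the 6 of 24 hours, with no overlap with control. The 3 regions of 3 hours had 12, 14 and 29, and from 5 days on the highest was 16. All targets moved in the same direction, from 480 to 748 above that limit in control to 1417 to 2178 at 12 hours.

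**Figure D2:**
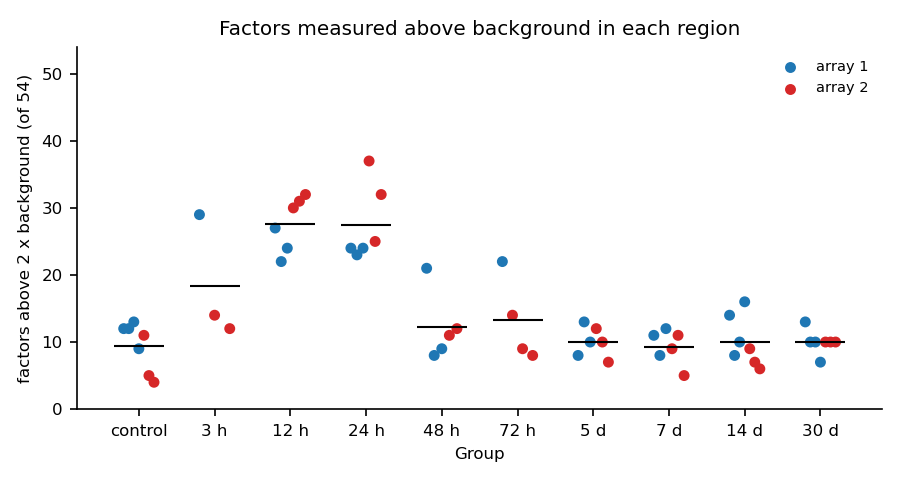
Number of the 54 factors above 2 times background in each of the 57 regions, by group. Points are regions, coloured by tissue array, and black lines are group means. The 12-hour and 24-hour regions hold 22 to 37 such factors and the controls 4 to 13.

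The start regions of the factors that lead the results are printed here, to show what the strongly and weakly changing genes have at their starts. They are RefSeq windows on GRCm38.p6, from 60 bases before to 24 after the annotated gene start, 5′ to 3′ on the strand of the gene. Capitals mark the letters found by a search of 250 bases before to 50 after the start: CACGTG (the E-box), TATAAA, TGACGTCA (the cAMP response element), and a run of at least 7 C or T beginning with C that starts within 10 bases before to 30 after the start. The first 3 motifs were searched on both strands. The motifs were chosen after the windows had been seen. Eef2, Eif1, Eif4a1, Eif3c and Eif2ak3 are the 5 factors with the largest rises at 12 hours. Eif3f is an eIF3 subunit that has a long run of this kind and was not called against control at any time.
Eef2, chr10:81176571-81176654, plus strand: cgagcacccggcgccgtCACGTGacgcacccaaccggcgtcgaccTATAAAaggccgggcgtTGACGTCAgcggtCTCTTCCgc
Eif1, chr11:100319889-100319972, plus strand: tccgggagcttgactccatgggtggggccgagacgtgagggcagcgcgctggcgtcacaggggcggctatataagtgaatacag
Eif4a1, chr11:69672400-69672483, minus strand: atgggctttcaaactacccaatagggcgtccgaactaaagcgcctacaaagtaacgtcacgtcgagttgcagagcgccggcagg
Eif3c, chr7:126566343-126566426, minus strand: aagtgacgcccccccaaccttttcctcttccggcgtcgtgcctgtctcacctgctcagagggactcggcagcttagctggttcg
Eif2ak3, chr6:70844455-70844538, plus strand: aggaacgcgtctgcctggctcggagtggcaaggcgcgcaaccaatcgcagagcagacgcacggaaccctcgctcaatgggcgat
Eif3f, chr7:108934355-108934438, plus strand: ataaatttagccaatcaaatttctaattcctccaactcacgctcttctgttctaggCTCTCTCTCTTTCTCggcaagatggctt

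Only the Eef2 window among these 6 holds all of the marked motifs, and it is the only one of the 43 factors with a RefSeq window in which TGACGTCA was found. That motif is in 1.79% of all 32851 RefSeq windows and TATAAA is in 13.6%. Some genes have more than 1 window, and the 43 factors have 57. CACGTG is in 14 of these 57 windows, of 12 factors, and in 7.15% of all windows, and those of Eif4a1 and Eif3f hold it outside the stretches printed. The Eif3f window also holds TATAAA, at -61 from the start. Its first letter lies outside the stretch printed, which opens with the rest in lower case. The pyrimidine run is in 17 of the 57, of 15 factors, and in 17.2% of all windows. Of the motifs known from the stress response, the C/EBP-ATF response element TGATGCAA and the endoplasmic reticulum stress response element were found in no window of a factor, and in 0.895% and 0.119% of all windows. None of the motifs overlaps another in the windows printed. These matches describe letters and do not show that a protein binds there.

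The first comparison asks how translation factor RNA stood at each time of pancreatitis against control. At 3 hours 5 of the 34 tested factors were called, all higher (14.7%, against 11.4% of all tested targets called, 7.66% higher and 3.76% lower). They were Eif1, Eif3c, Eif4a1, Eif2s2 and Eif6. At 12 hours 16 were higher and 2 lower, against 42.9% of all tested targets called, 21.8% higher and 21% lower. At 24 hours 12 were higher and 1 lower, against 42.3% called, 21.8% higher and 20.5% lower. The share of factors called higher was thus 47.1% at 12 hours and 35.3% at 24 hours. Some factors exceeded 2 times background in no control region and passed the limit for testing through the early times. Eif3b, for example, exceeded it in 1 region of 3 hours, 6 of 12 hours and 5 of 24 hours, and in none of the other groups. For such factors a rise was favoured in advance. All tested targets passed the same limit. The 9 comparisons with control share the same control sums, so they are given side by side and not as repeats of each other.

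The median log2 difference of the 34 factors was 0.21 at 3 hours, 0.28 at 12 hours and 0.24 at 24 hours, beside -0.02, -0.01 and 0.00 for all 2688 targets. The 5, 16 and 12 called rises lay above 0 under all 6 scalings tried. So did 25, 27 and 26 of the 34 factors at these times, whether called or not. None of the called falls lay below 0 under all 6. Total-count and negative-probe scaling moved the median of all targets upward, so these outcomes were largely set in advance and do not rank rises over falls. Scaling to the total count moved the median of all targets to 0.38, 0.55 and 0.59 at these times, and with negative-probe scaling it was 0.20, 0.40 and 0.44. The factors stood 0.23 to 0.29 above the median of all targets under both of these scalings.

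The calls at 12 and 24 hours rest largely on array 2. Without its 12-hour sum 2 factors were called at 12 hours (Eef2 and Eif4a1), and without its control sum 3 (Eef2, Eif4a1 and, lower, Eif4e3). At 24 hours 1 was called without the 24-hour sum of array 2 (Eif2ak3) and 1 without its control sum (Eif4a1). The 3-hour sum of array 1 is a single region, and leaving it out left 2 calls at 3 hours (Eif3c and Eif4a1). The same 2 factors were called if the array 2 sum of control was dropped, 3 if that of array 1 was dropped, and 10 if the array 2 sum of 3 hours was dropped. Of all tested targets 10.4% and 15% were called in the 2 fits for 12 hours, 9.52% and 17.8% in those for 24 hours, and 4.39%, 5.62%, 6.99% and 17.6% in the 4 fits for 3 hours, in the order given. In these fits the lone sum was assumed to vary like the other groups.

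Markers of several cell types moved with these results. The 10 acinar markers, 9 of them called lower at each of 3, 12 and 24 hours, held 12.6 to 17.2% of all counts in control regions, 5.06 to 6.80% at 3 hours, 5.93 to 7.63% at 12 hours and 1.66 to 5.36% at 24 hours. The 10 ductal markers in the table, of which 8 were tested and 7 called higher at 12 hours, went from 0.0572 to 0.0701% in control to 0.648 to 1.52% at 12 hours, and the 10 fibroblast and matrix markers, 9 tested and 9 called higher at 24 hours, from 0.0426 to 0.0559% in control to 0.175 to 0.516% at 24 hours. The 11 macrophage markers, 10 tested and 8 called higher at 24 hours, went from 0.0471 to 0.0590% to 0.0899 to 0.221% at 24 hours, and no marker in any of these lists was at 0. Of 3 tested neutrophil markers 2 were called lower at 12 and at 24 hours, and the lymphocyte and endothelial markers were too weak to test. All 4 tested islet markers were called higher at 12 hours, and none was called at 3 or 24 hours. The 1 tested erythrocyte marker was called lower at 12 hours. Nuclei per region ran from 585 to 1191 in control and from 1275 to 1623 at 12 hours. At 3 and 24 hours they ran from 867 to 1537 and from 966 to 1678, overlapping control. The part of these shifts in the factor results was not tested, and in whole regions fewer cells of a type and less RNA per cell cannot be told apart.

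Elongation factor 2, the GTPase that moves the ribosome by a codon, had the largest rise of the family at 12 and 24 hours. The Eef2 probe lies at chr10:81177704-81177739. Its level in the 7 control regions ran from 2.72 to 3.54 with a median of 3.21. The 3 regions of 3 hours had 8.65, 4.72 and 4.02. At 12 hours the level ran from 7.17 to 14.0 (median 11.5) and at 24 hours from 6.77 to 14.2 (median 8.27).

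All 15 regions of these 3 times lay above the highest control region for Eef2. The difference from control was 1.36 ± 0.27 at 12 hours, a fold of 2.56, with an adjusted p of 0.00155, and 1.15 ± 0.27 at 24 hours (adjusted p 0.00416). At 3 hours it was 0.75 ± 0.28 and was not called (adjusted p 0.0914). The rise at 12 hours was 0.92 on array 1 and 1.72 on array 2, and it was called with any 1 of the 4 sums left out (lowest value 0.95). At 24 hours it was not called without the 24-hour sum of array 2 (0.89) or its control sum (1.05).

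After 24 hours the Eef2 level differed from time to time. The 5 regions of 48 hours had 5.08, 3.30, 3.12, 4.81 and 4.52, and the 4 of 72 hours had 6.34, 3.61, 3.42 and 2.91. Of these, 3 regions of 48 hours and 2 of 72 hours lay above the highest control region. At 5 days the level ran from 2.31 to 3.1 (median 2.87), with 2 of 6 regions below the lowest control region, and at 14 days from 2.19 to 3.39 (median 2.69), with 4 of 7 below it. At 7 days it ran from 3.05 to 4.51 (median 4.20), with 4 of 6 above the highest control region. At 30 days it ran from 2.84 to 3.40 (median 3.33), within the control range. The TMM differences were -0.22 ± 0.27, 0.30 ± 0.27, -0.24 ± 0.27 and 0.00 ± 0.27 for 5, 7, 14 and 30 days, none called.

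Eef2k, the kinase that inhibits elongation factor 2, was weakly detected, with a highest level of 1.83 in any region. The 3 tested subunits of the elongation factor 1 exchange complex, which recharges the aminoacyl-tRNA carrier with GTP, gave smaller values. Eef1g rose at 12 hours by 0.51 ± 0.19 (adjusted p 0.0363), from a control level of 2.04 ± 0.36 (SD, n = 7 regions) to 3.66 ± 0.65 (n = 6). Its value at 24 hours, 0.40 ± 0.19, was not called. Eef1d rose at 24 hours, by 0.30 ± 0.09 (adjusted p 0.0156), and stood at 0.17 ± 0.09 at 12 hours, not called. Eef1b2 had 0.43 ± 0.18 at 12 hours and was not called against control at any time (adjusted p 0.0657 at 12 hours).

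Eif1, the small factor that keeps the initiation complex open until it meets a start codon, had the largest difference from control at 3 hours among the factors tested. Its probe has 2 listed positions, chr11:100320760-100320794 in the gene and another on chromosome X that the probe table annotates to Emd, so counts from a copy cannot be told apart. In control regions its level ran from 2.79 to 4.31 (median 3.85). The 3-hour regions had 15.5, 6.78 and 6.92. It ran from 6.26 to 12.2 at 12 hours (median 9.99) and from 5.88 to 15.3 at 24 hours (median 7.89).

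No region of these times overlapped the control range for Eif1. The difference was 1.30 ± 0.28 at 3 hours (adjusted p 0.00451), 0.94 ± 0.27 at 12 hours (0.0125) and 0.94 ± 0.27 at 24 hours (0.0128). The region with 15.5 makes up the whole 3-hour sum of array 1, and without it the 3-hour difference was 0.80 and not called (adjusted p 0.161). Without the control sum of array 2 it was 1.15 and not called. The 12-hour and 24-hour calls were lost without the array 2 sum of that time, at 0.57 and 0.56, and without the array 2 sum of control, at 0.81 and 0.80.

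Of the other factors that select the start codon, Eif2s2, the beta subunit of eIF2, rose at 3 hours by 0.51 ± 0.15 (adjusted p 0.0387) and at 12 hours by 0.42 ± 0.14 (adjusted p 0.0291). Its level was 2.46 to 4.11 in the 3-hour regions and 1.56 to 2.16 in control. The 3-hour value was 0.31 without the array 1 sum of that time, 0.38 without the array 2 sum of control and 0.63 without the array 1 sum of control, and none of these was called. It was also lost without either sum of 5 or of 7 days, and was called in 13 of the 20 fits that leave out a sum. Eif2s1, the alpha subunit that the stress kinases phosphorylate, was not called, with 0.25 ± 0.13, 0.16 ± 0.12 and 0.02 ± 0.12 at 3, 12 and 24 hours. The gamma subunit genes Eif2s3x and Eif2s3y and Eif5, the GTPase activator of eIF2, were weakly detected.

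Eif5b, the GTPase that joins the ribosomal subunits, was called lower at 12 hours, by -0.22 ± 0.07 (adjusted p 0.0250), and at 24 hours, by -0.21 ± 0.07 (adjusted p 0.0360). Its direction turned with the scaling, to 0.35 and 0.38 with the total count and to 0.20 and 0.23 with the negative probes. As multiples of background its level was 1.56 ± 0.19 in control (n = 7), 1.82 ± 0.18 at 12 hours (n = 6) and 1.88 ± 0.20 at 24 hours (n = 6), so the group means were under 2. Neither fall was called with any 1 of the 4 sums left out.

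Eif2ak3, the kinase PERK that senses unfolded protein in the endoplasmic reticulum and phosphorylates eIF2, rose at 12 and 24 hours. Its probe lies at chr6:70844823-70844865. Control regions ran from 1.91 to 2.71 (median 2.60). The 3-hour regions had 3.36, 2.77 and 2.79, and the later regions ran from 4.30 to 5.58 at 12 hours (median 4.87) and from 4.09 to 6.43 at 24 hours (median 4.97). At 48 hours the 5 regions had 3.24, 1.85, 1.95, 2.98 and 3.26.

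The 12-hour and 24-hour ranges of Eif2ak3 lay wholly above that of control. The difference was 0.66 ± 0.15 at 12 hours (adjusted p 0.00362) and 0.73 ± 0.15 at 24 hours (adjusted p 0.00180). At 3 hours it was 0.14 ± 0.16 and not called, although all 3 regions were above control as multiples of background. Without the 12-hour sum of array 2 the 12-hour value was 0.60 with an adjusted p of 0.0504, and without the control sum of array 2 it was 0.50 with 0.0830. At 24 hours the call was lost without the control sum of array 2 (0.56, adjusted p 0.0526). Eif2ak2, the kinase activated by double-stranded RNA, was weakly detected, with a highest level of 1.74.

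Eif4a1, the RNA helicase that unwinds the leader of the mRNA for scanning, was called at 3, 12 and 24 hours. Its probe lies at chr11:69669198-69669235. Its control levels ran from 1.84 to 2.58 (median 2.09). The 3-hour regions had 6.06, 3.29 and 3.81. It ran from 4.04 to 6.22 at 12 hours (median 5.15) and from 3.95 to 6.26 at 24 hours (median 4.41).

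As multiples of background, a scale on which the median of all targets also rose, no region of these 3 times overlapped control for Eif4a1. The differences were 0.88 ± 0.17 (adjusted p 0.00192), 0.85 ± 0.16 (0.00124) and 0.72 ± 0.16 (0.00308) at 3, 12 and 24 hours. The calls at 3 and 12 hours held with any 1 of their 4 sums left out, with values from 0.64 to 1.13 and from 0.66 to 1.01. The 24-hour call was lost without the 24-hour sum of array 2 (0.59, adjusted p 0.0680).

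Eif4a1 levels after 24 hours lay above the control range at 48 hours and 30 days. The 5 regions of 48 hours had 4.02, 2.67, 2.70, 3.19 and 3.01, all above the highest control region, and the 7 of 30 days ran from 2.65 to 3.12 (median 2.84), again without overlap. The 4 regions of 72 hours had 3.78, 3.41, 2.91 and 2.57. In the test on sums the differences for 48 and 72 hours were 0.40 ± 0.16 and 0.49 ± 0.17. Those for 5, 7, 14 and 30 days were 0.29, 0.27, 0.25 and 0.38, each ± 0.16. None of these passed the threshold, with adjusted p from 0.237 at 72 hours to 1.00 at 30 days. DESeq2 on the same sums called it at 72 hours (0.48, adjusted p 0.0407).

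The other helicase of the cap complex, Eif4a2, rose at 24 hours by 0.58 ± 0.17 (adjusted p 0.0139) and at 12 hours by 0.46 ± 0.17 (adjusted p 0.0383), and stood at 0.11 ± 0.18 at 3 hours, not called. Its level ran from 1.96 to 2.97 in control and from 3.79 to 6.48 at 24 hours, without overlap. The 24-hour call was lost without the array 2 sum of that time (0.45) or of control (0.37). Eif4a3, the helicase of the exon junction complex, which marks spliced mRNA, was not called, with -0.11 ± 0.12, 0.07 ± 0.11 and -0.07 ± 0.11.

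Among the 9 tested targets of the cap complex, 5 rose and 1 fell at 12 hours and 4 rose at 24 hours, against 42.9% of all tested targets called at 12 hours (21.8% higher, 21% lower) and 42.3% at 24 hours (21.8% higher). Beside both helicases, the rises at 12 hours were those of Eif4h, a helicase cofactor, at 0.41 ± 0.13 (adjusted p 0.0220), of the scaffold Eif4g3 at 0.34 ± 0.11 (0.0230) and of the cap-binding protein gene Eif4e at 0.27 ± 0.10 (0.0348). Eif4h and Eif4g3 were called at 24 hours too, at 0.39 ± 0.13 and 0.38 ± 0.11. The scaffold Eif4g1 (0.14 ± 0.09 at 12 hours), its relative Eif4g2 (0.02 ± 0.12) and the cofactor Eif4b (-0.03 ± 0.10) were not called.

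Eif4e3, a relative of the cap-binding protein, was called lower at 12 hours by -0.30 ± 0.09 (adjusted p 0.0146). This too turned with the scaling, to 0.27 with the total count and 0.12 with the negative probes, and its level was 1.66 ± 0.18 in control (n = 7) and 1.76 ± 0.10 at 12 hours (n = 6). The call was lost without the 12-hour sum of array 2 (-0.28) or the control sum of array 1 (-0.19). Eif4ebp1, the repressor that binds eIF4E, was measured throughout, at 2.25 ± 0.36 in control and 3.36 ± 0.58 at 12 hours, and its TMM differences of 0.39 ± 0.16, 0.22 ± 0.15 and 0.24 ± 0.15 at 3, 12 and 24 hours were not called.

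**Figure D3:**
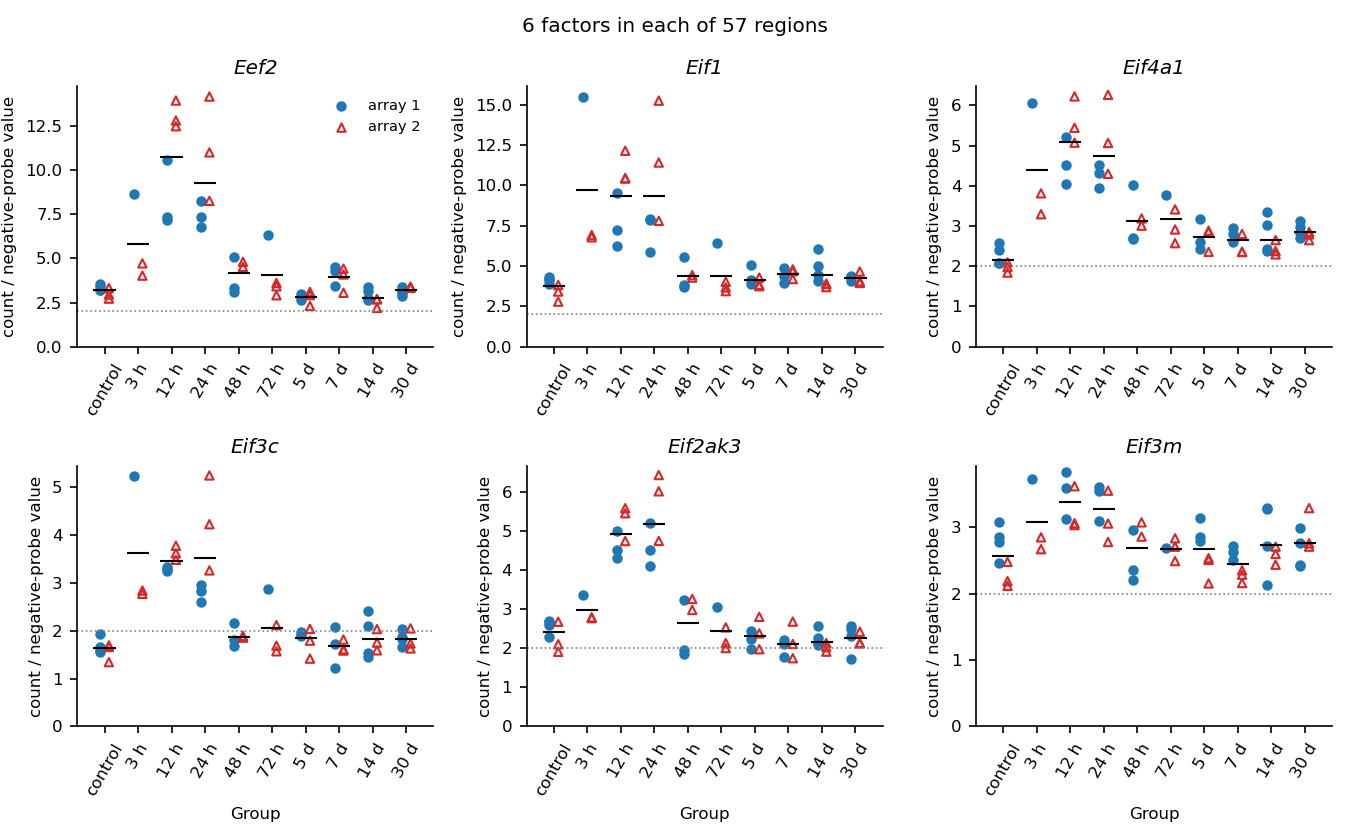
Level (count over negative-probe value) of Eef2, Eif1, Eif4a1, Eif3c, Eif2ak3 and Eif3m in each of the 57 regions by group. Filled circles are regions of array 1, open triangles regions of array 2, black lines group means, and the dotted line 2 times background. Eef2 in the 12-hour regions runs from 7.17 to 14.0 with array 2 uppermost, while Eif3m overlaps control at every time.

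The eIF3 complex, the large scaffold that holds the small subunit and the mRNA together, had 12 tested targets, 11 of them measured in part. Eif3a, Eif3b, Eif3c, Eif3d, Eif3e, Eif3f, Eif3h, Eif3i and Eif3k exceeded 2 times background in no control region. Every eIF3 rise called at 12 hours is among these, so the counts of rises here lean on the limit for testing. At 3 hours 1 rose (Eif3c), at 12 hours 5 (Eif3c, Eif3h, Eif3e, Eif3b and Eif3i) and at 24 hours 4 (Eif3c, Eif3h, Eif3e and Eif3g), and none fell. Of all tested targets 7.66%, 21.8% and 21.8% were higher at these times. The median difference of the 12 was 0.21, 0.24 and 0.13 at these times. The subunits thus differed widely in their values, from Eif3c at 0.71 ± 0.17 to Eif3j1 at -0.04 ± 0.13 at 12 hours. The Eif3j1 probe also has 2 listed positions.

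Eif3c, a core subunit, had the largest of these rises. In control regions its level ran from 1.34 to 1.93 (median 1.66), under 2 times background. The 3-hour regions had 5.24, 2.77 and 2.84. It ran from 3.25 to 3.78 at 12 hours (median 3.41) and from 2.60 to 5.25 at 24 hours (median 3.11).

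The ranges of Eif3c in these 3 groups did not overlap that of control. The differences were 0.99 ± 0.18 at 3 hours (adjusted p 0.00136), 0.71 ± 0.17 at 12 hours (0.00465) and 0.71 ± 0.17 at 24 hours (0.00452). With background subtracted before the fit the 3-hour value was 1.60. The 5 regions of 48 hours had 2.16, 1.80, 1.69, 1.89 and 1.86, most of them inside the control range. The 3-hour call held with any 1 of the 4 sums left out (0.69 to 1.33). The 12-hour call was lost without the array 2 sum of that time (0.61) or of control (0.66), and so was the 24-hour call (0.40 and 0.66).

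Eif3m, another subunit, exceeded 2 times background in all 57 regions and was not called at any time. Its level was 2.56 ± 0.35 in control (n = 7), 3.38 ± 0.35 at 12 hours (n = 6) and 3.27 ± 0.34 at 24 hours (n = 6). Its TMM differences were 0.10 ± 0.16, 0.01 ± 0.16 and -0.03 ± 0.16, none called. With negative-probe scaling the 12-hour value was 0.43 (adjusted p 0.0419), beside a median of 0.40 for all targets, and with total-count scaling it was 0.57 (adjusted p 0.00791) beside 0.55. The other called values of the complex at 12 hours were 0.54 ± 0.15 for Eif3h, 0.45 ± 0.10 for Eif3e, 0.37 ± 0.09 for Eif3b and 0.28 ± 0.10 for Eif3i. At 24 hours they were 0.45 ± 0.15 for Eif3h (adjusted p 0.0250), 0.33 ± 0.10 for Eif3e (0.0162) and 0.27 ± 0.09 for Eif3g.

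Eif5a, whose product helps the ribosome through stretches that stall it, rose at 12 hours by 0.62 ± 0.22 (adjusted p 0.0291). Its level ran from 1.53 to 2.55 in control and from 3.19 to 5.08 at 12 hours, without overlap. The rise was 0.20 on array 1 and 0.97 on array 2, and it was not called without the 12-hour sum of array 2 (0.27), the control sum of array 2 (0.50) or that of array 1 (0.73). At 24 hours it was 0.52 ± 0.22, not called. Eif6, which keeps the ribosomal subunits apart, rose at 3 hours by 0.35 ± 0.11 (adjusted p 0.0486), with regions at 2.88, 1.84 and 1.80 beside 1.36 to 1.78 in control. Its call was lost without the 3-hour sum of array 1 (0.19), without either control sum, without either sum of 12, 48 or 72 hours or of 5, 14 or 30 days, and under 75th percentile scaling, so it was called in 5 of the 20 fits that leave out a sum.

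**Figure D4:**
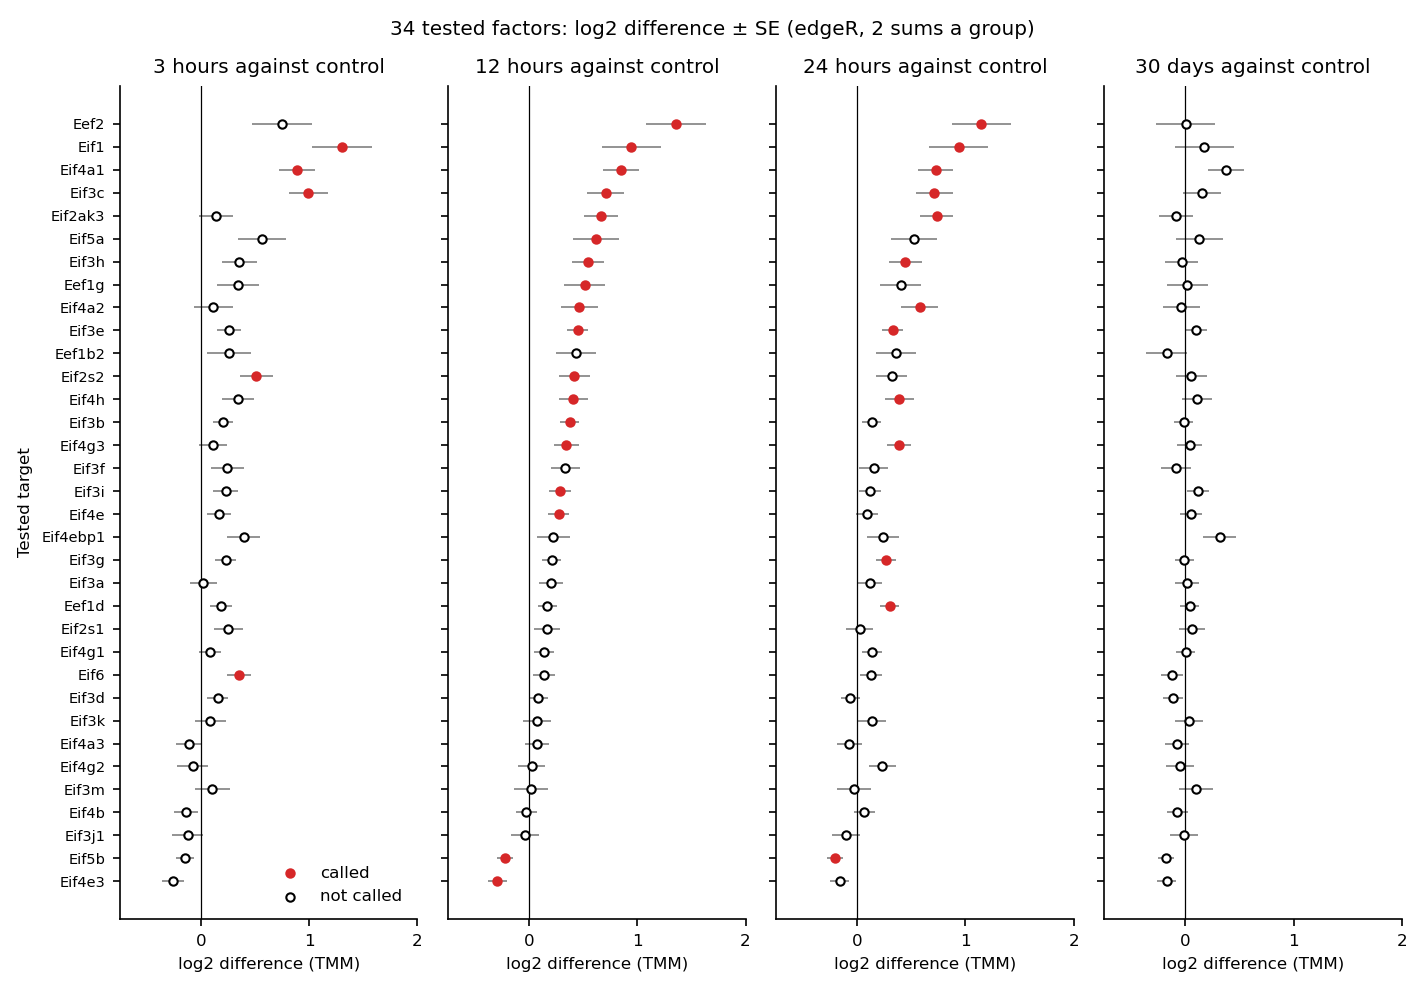
Log2 difference from control (TMM) of the 34 tested factors at 3, 12 and 24 hours and at 30 days, with bars for ± SE from edgeR on 2 sums a group. Red points passed the adjusted p of 0.05 and open points did not. Factors are ordered by the 12-hour value, from Eef2 at 1.36 to Eif4e3 at -0.30.

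From 48 hours on no factor was called by edgeR. Of all tested targets 1.67% were called at 48 hours and 1.08% at 72 hours, with 0.67% higher at 48 hours and 0.67% higher at 72 hours. For 5, 7, 14 and 30 days the shares were 0.372%, 0.0372%, 0% and 0.0372%. At an unadjusted p under 0.05 there were 2, 3, 0, 1, 0 and 2 of the 34 factors, and DESeq2 called 1, Eif4a1 at 72 hours. The median of the factors was 0.05 at 48 hours, 0.13 at 72 hours and 0.01 at 30 days. The largest absolute differences at 5 days and 14 days were 0.29 (Eif4a1) and 0.27 (Eif4ebp1). A single edgeR test over the 9 times called 11 of the 34 factors, against 42.1% of all tested targets. Some factors called at a time above were not called by it. These were Eif3g (adjusted p 0.0502), Eif4h (0.0630), Eif4g3 (0.0838), Eif4e (0.158), Eif5a (0.167), Eef1d (0.171), Eef1g (0.190) and Eif3i (0.206). The falls of Eif4e3 (0.127) and Eif5b (0.234) were not called by it either.

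The 30-day regions were compared with those of 12 hours, a test of whether the difference from control at the 2 times was the same. Of the 34 factors 14 were lower at 30 days and none higher, against 42.4% of all tested targets called, 21.5% lower. Eef2 stood -1.35 ± 0.27 lower (adjusted p 0.00142), Eif2ak3 -0.75 ± 0.15 (0.00157), Eif1 -0.77 ± 0.27 (0.0326), Eif3c -0.55 ± 0.17 (0.0162) and Eif4a1 -0.47 ± 0.16 (0.0288). All of these had been called higher at 12 hours, and the test reuses those sums, so lower values at 30 days were favoured in advance. The count was 2 without the 12-hour sum of array 2 and 4 without either 30-day sum, where 12.8%, 21.8% and 28.3% of all tested targets were called. Of the factors named here only Eef2 and Eif2ak3 were called in all 3 of these fits, and the other 3 were called in none of them.

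Between 3 and 12 hours no factor was called by edgeR, against 0.781% of all tested targets. At an unadjusted p under 0.05 there were 2, Eif2ak3 at 0.52 ± 0.16 (adjusted p 0.144) and Eef2 at 0.61 ± 0.27 (adjusted p 0.326). DESeq2 called Eif2ak3 (0.53, adjusted p 0.0378). The Eef2 values of the arrays disagreed in sign, at -0.08 on array 1 and 1.27 on array 2.

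The region of 12 hours that is replicate 1 on array 1 stood apart in islet RNA, with the insulin gene Ins2 at 278 times background beside at most 11.6 in the other 12-hour regions. Without it 12 factors were called higher and 2 lower at 12 hours, in place of 16 and 2, against 39.9% of all tested targets called in that fit, 20.9% higher and 19% lower.

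Other parts of the translation machinery were measured from fixed lists, and their counts stand beside 11.4%, 42.9% and 42.3% of all tested targets called at 3, 12 and 24 hours (7.66%, 21.8% and 21.8% of all higher). Of 74 tested ribosomal protein targets 5 rose at 3 hours, 55 at 12 hours and 56 at 24 hours, and their medians were 0.51, 0.83 and 0.71. These stood above the medians of the factors at each of the 3 times. The fit did not subtract background, and with it subtracted the 3-hour value of Eif3c went from 0.99 to 1.60. The medians therefore do not rank the factors and the ribosomal proteins by change in RNA. Ribosomal protein genes with the largest called values at 12 hours were Rps6 (1.40 ± 0.30), Rpl5 (1.37 ± 0.26) and Rps16 (1.34 ± 0.29).

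Of the 8 factors known as terminal oligopyrimidine mRNAs, messages whose translation follows mTOR signalling, 4 rose at 12 hours and 4 at 24 hours, with medians of 0.44 and 0.34. The 3 largest at 12 hours were Eef2, Eif3h and Eef1g. Of 21 tested regulators outside the family, 6 rose and 1 fell at 12 hours, with a median of 0.06, against 42.9% of all tested targets called, 21.8% higher. The largest were Tpt1 at 1.26 ± 0.31, Pabpc1, the poly(A)-binding protein that bridges to the cap complex, at 1.08 ± 0.20 (adjusted p 0.000732), and Btf3, a subunit of the nascent-chain complex, at 1.06 ± 0.20. Of 11 tested cytosolic aminoacyl-tRNA synthetase targets, the enzymes that load amino acids onto tRNA, 1 rose at 3 hours and 1 at 24 hours, and their 12-hour median was 0.05. The 5 mitochondrial translation factor targets in the table were all too weak to test.

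**Figure D5:**
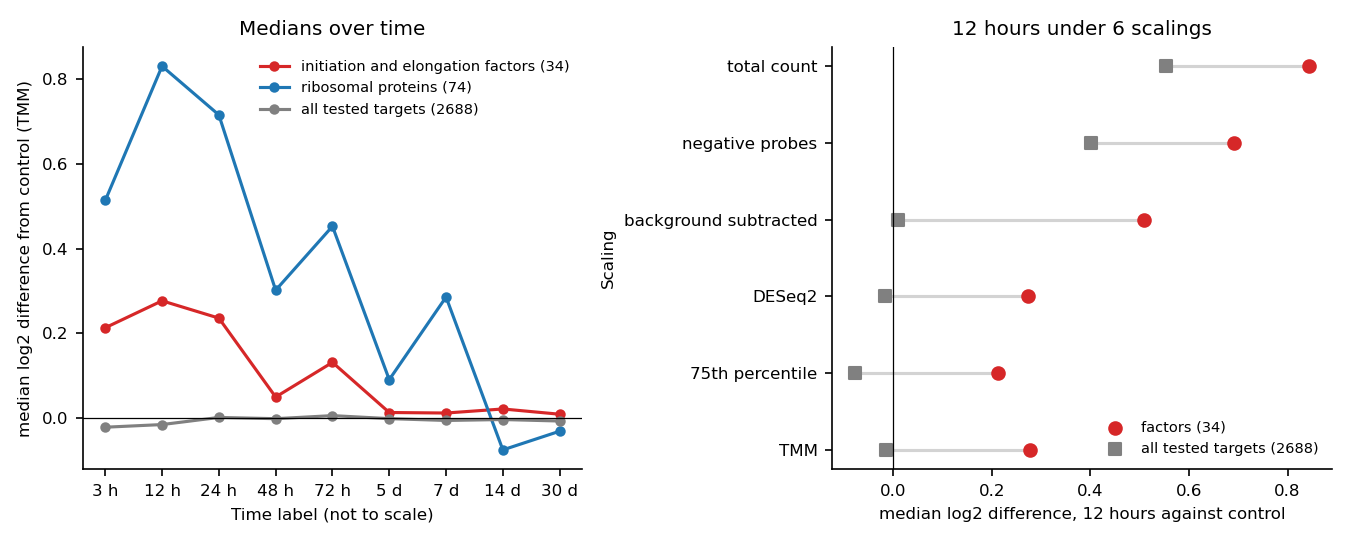
Left, median log2 difference from control (TMM) of the 34 factors, the 74 ribosomal protein targets and all 2688 tested targets at the 9 times. Right, median of the factors and of all tested targets at 12 hours under 6 scalings. The factors stand above all targets under each scaling, and both medians shift together under the total-count and negative-probe scalings.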

How the data were processed

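The authors deposited expected counts of 9780 targets in 57 regions (deduplicated barcode counts made with GeoMx NGS Pipeline 2.3.3.10, per the file headers), and 3 targets held fractional values, which were rounded before summing. They also deposited a normalised signal, used here as a check on the levels, and a region summary with read and nuclei counts and sequencing saturation in percent (94.6 to 96.3). Probe positions and the outlier fraction of each probe, 0 for all 54 factors, came from the deposited probe table. The submitters' processing notes name limma and the build mm10, with no role stated.

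A target was tested if at least 3 regions exceeded 2 times their negative-probe value. The 20 sums per group and array were TMM-scaled, and the model was fitted in edgeR 4.0.16 (quasi-likelihood, terms for group and array, 9 residual degrees of freedom) in R 4.3.3, and calls used Benjamini-Hochberg adjusted p under 0.05. The code was tested on simulated data. DESeq2 1.42.0, limma-voom (limma 3.58.1), 3 other scalings, background subtraction, other filters and leaving out each sum were alternatives. The factors and lists were chosen with earlier results of these data known. Named factors are, for each time against control, at most the 6 largest called rises and 6 largest called falls whose arrays agreed in sign. Each pathway list adds at most its 3 largest calls of 12 hours. Called factors beyond these, and Eif3m, were added after their values were seen.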

Additional observations from a re-analysis of the deposited data

Results flagged for a closer look

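In groups of 4 to 10 regions, 108 sets of levels of the factors named by the rule, with Eif3m, were searched for a region far from the rest, and 5 were found, about the number that chance gives at 1 in 20. Eif2s2 had 2.92 and Eif5a had 3.42 in replicate 1 of 72 hours, the only 72-hour region on array 1, beside at most 2.02 and 2.01 in the other 3 regions. Replicate 4 of 14 days on array 1 had the highest Eif5a (3.54, next 2.52) and the highest Eif4e3 (2.11, next 1.67). Replicate 3 of control had an Eif6 level of 1.78, next 1.47.

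The difference from control was not the same at 30 days and at 12 hours for 7 factors named by the rule, by the test of 30 days against 12 hours. The rule names factors by their calls against control, and this test reuses the same 12-hour sums. For factors named as high at 12 hours a lower 30-day value was thus favoured in advance. The log2 differences were -1.35 for Eef2, -0.77 for Eif1, -0.75 for Eif2ak3, -0.55 for Eif3c, -0.50 for Eif4a2 (adjusted p 0.0277), -0.47 for Eif4a1 and -0.26 for Eif6 (adjusted p 0.0455). Of these 7, Eef2 and Eif2ak3 were called without the 12-hour sum of array 2 and without either 30-day sum, and the other 5 were lost in each of these 3 fits. Eif6 was also lost without the 12-hour sum of array 1, and was called in 8 of the 20 fits that leave out a sum.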

How the results depend on the processing

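Scaling moved the counts most. With the total count 27, 33, 34, 29 and 25 factors were called at 3, 12, 24, 48 and 72 hours, 32 between 12 hours and 30 days and 33 at any time, where of all tested targets 48.8%, 74.6%, 77.6%, 75.2%, 56.4%, 63.9% and 74.7% were called. With the negative probes the values were 11, 32 and 32 at 3, 12 and 24 hours, 32 and 27, against 16.8%, 61.5%, 66%, 57.4% and 58.1%. Under these 2 scalings the falls turned, Eif4e3 at 12 hours to 0.27 and 0.12, and Eif5b to 0.35 and 0.20 at 12 hours and to 0.38 and 0.23 at 24 hours. With background subtracted 7 were called at 24 hours, 8 between 12 hours and 30 days and 7 at any time, against 36.9%, 37% and 38.1% of all targets. With no filter on low counts (54 factors tested) these were 25, 27 and 29, against 21.1%, 18.5% and 20.1% of 9780 targets, and with the deposited limit of quantitation as filter (52 tested) 23, 27 and 26, against 24.1%, 21.4% and 22.9% of 8530. DESeq2 called 1 at 72 hours (Eif4a1) and 1 between 3 and 12 hours (Eif2ak3), against 3.01% and 2.08%. Limma-voom on regions with the group and array as a random block called 9 at 3 hours, Eif4a1 as the only 1 at 48 and at 72 hours, and 1 between 3 and 12 hours (Eif2ak3), against 16.7%, 7.33%, 4.61% and 3.12%.

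Single regions with an array term, which counts regions that may share an animal as separate, gave 9 at 3 hours, 20 at 24 hours, 3, 3, 1, 2, 1 and 2 from 48 hours to 30 days, 3 between 3 and 12 hours, 22 between 12 hours and 30 days and 29 at any time, against 22.9%, 62.7%, 18.2%, 9.97%, 8.07%, 7.55%, 5.21%, 3.79%, 14.2%, 61.9% and 78.9% of all targets. Eif4a1 was called in that fit at 48 hours, 72 hours, 5 days, 7 days and 30 days. Levels of regions with the same replicate number in different groups correlated at -0.449 to 0.671 (median 0.196, as deviations from group means). Those with different numbers correlated at -0.709 to 0.722 (median -0.0632). Regions with the same number often lay on the same array, so these values cannot decide whether the numbers pair regions. With the replicate block the counts were 15, 2 and 4 for 3, 48 and 72 hours, 1 at 30 days (Eif4a1), 3 between 3 and 12 hours, 23 between 12 hours and 30 days and 28 at any time, against 37.1%, 13.6%, 10.7%, 2.12%, 13.1%, 61.6% and 78.6% of all targets.

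With each sum left out in turn the calls ranged from 2 to 10 at 3 hours, 2 to 18 at 12 hours, 1 to 14 at 24 hours, 2 to 16 between 12 hours and 30 days and 8 to 15 at any time, and were 0 to 0 in the other 7 comparisons. The share of all targets called ranged over the same fits from 4.39 to 17.6%, 10.4 to 45.3%, 9.52 to 44.4%, 12.8 to 44.6% and 34.5 to 47.2% in that order. At 1.5 times background 31 factors were measured throughout and 1 weakly, and at 3 times 2 were measured throughout, 13 in part and 39 weakly. Leaving out the islet-rich region was chosen after seeing the data. Beyond leaving out a sum, the cause of these moves was not tested. Depth and signal limit what can be said of the 20 weak factors.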
